A study of Mus musculus with 22 samples.

Results

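Brown adipose tissue (BAT) of CPEB2-knockout (KO) mice was compared with that of wild-type (WT) mice when both had received a virus that supplies PRDM16. The comparison comprised 6 of the 22 libraries of the series, those labelled KO or WT with the PRDM16 virus, 3 per genotype, and all 18899 genes that passed the filter on low counts. All mice were described as male and were on a C57BL/6 background, and the KO mice lacked *Cpeb2* in all tissues, not in fat alone. A recombinant adeno-associated virus (AAV) with the coding region of flag-tagged PRDM16 was injected into interscapular BAT at 16 weeks of age, and tissue was taken 9 weeks afterwards, which the labels give as 25 weeks of age. The study's text gives a slightly later age for KO mice with AAV-GFP. The promoter in the vector and the share of cells that took it up are not given in the sources used here. Another 6 libraries, from KO and WT mice injected with AAV-GFP at the same age, entered the same fit and served as the reference for whether a genotype difference was seen without added PRDM16. Each library was 1 mouse, and RNA was taken from whole tissue, so fewer cells of a type and less RNA per cell cannot be told apart in any result.

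CPEB2 binds the cytoplasmic polyadenylation element in the untranslated end of mRNAs and regulates their translation. PRDM16 is a transcriptional coregulator that directs precursor cells to a brown fat fate and away from a muscle fate, with PPARγ, C/EBPβ and PGC-1α among its partners. Brown adipocytes burn fatty acids in dense mitochondria, where UCP1 lets protons back across the inner membrane so that the energy is released as heat. The labels describe the virus groups as rescue groups, so the comparison asks which transcripts still differed between the genotypes once both received PRDM16.

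Library totals ran from 61636889 counts in KO mouse 76 to 110754370 in WT mouse 80. The mitochondrial genome held 30.21% to 36.88% of all counts, with the highest share in KO mouse 76, the shallowest library. Replicates of a group differed by more than sampling noise (median chi-square per gene of 5.255 or more), and every mouse counted once. Y-linked transcripts summed to at least 148.3 CPM (counts scaled to a library total of 1000000) in the 12 AAV libraries, and *Xist* did not exceed 0.242 CPM. The brown adipocyte markers *Ucp1*, *Cidea*, *Cox8b*, *Kcnk3*, *Zic1* and *Lhx8* were present in every library, with *Ucp1* at 1370 to 2480 CPM in KO and 2390 to 3530 CPM in WT. Levels are CPM after TMM scaling of the library totals, in the order KO mice 59, 65 and 76, then WT mice 63, 64 and 80. CPM is not divided by transcript length, so levels are compared between mice and not between genes. Each log2 fold change (log2FC) is KO minus WT.

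An adjusted p under 0.05 in edgeR's quasi-likelihood test with Benjamini-Hochberg adjustment was reached by 9 genes, 0.0476% of those tested. Of these, 8 were higher in KO (0.0423%) and 1 was lower (0.00529%). The higher genes encode a transcription factor (*Tead1*), enzymes that transfer sulfate groups (*Chst15*, *Sult1a1*), ubiquitin ligases (*Cblb*, *Mylip*), a basement membrane collagen (*Col4a1*), a SNARE-binding protein (*Stxbp6*) and FAM102B. The lower gene was *Cpeb2* itself. In each of the 9 genes the 3 KO and the 3 WT values did not overlap.

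*Cpeb2* (ENSMUSG00000039782, chromosome 5, 43233170 to 43289724, plus strand, GRCm38) is the gene deleted in the KO mice and so checks the labels. It was measured at 5.21, 4.33 and 4.91 CPM in KO and 12.9, 13.3 and 10.5 CPM in WT. Every KO mouse lay below every WT mouse, and transcript remained in all 3 KO libraries. The means were 4.82 ± 0.449 and 12.2 ± 1.52 CPM (SD, n = 3 each), 2.53-fold lower in KO (log2FC -1.34, SE 0.14, adjusted p = 0.0108 in edgeR's test). Which part of the gene is deleted relative to the counted reads is not given in the sources used here. The paralogs *Cpeb1*, *Cpeb3* and *Cpeb4*, which bind related elements, had overlapping groups and log2FC values of 0.14, -0.05 and 0.03.

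*Tead1* (chromosome 7, 112679318 to 112906807, plus strand) encodes a DNA-binding factor that recruits the coactivators YAP and TAZ, the end points of Hippo signalling. It was measured at 61.9, 93.9 and 65.9 CPM in KO and 24.6, 31.5 and 28.9 CPM in WT. All KO mice were above all WT mice, and KO mouse 65 was the highest. The mean was 73.9 ± 17.4 CPM in KO (SD, n = 3) and 28.3 CPM in WT, 2.61-fold apart (log2FC 1.38, SE 0.16, adjusted p = 0.0119 in edgeR's test). Leaving out each of the 12 AAV libraries in turn kept this call in 9 of 12 cases, as for *Cpeb2*.

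*Chst15* (chromosome 7, 132235780 to 132317228, minus strand) encodes a sulfotransferase that adds a second sulfate to chondroitin sulfate chains of the extracellular matrix. It stood at 76.2, 89.7 and 87.7 CPM in KO and 25.1, 38.3 and 38.2 CPM in WT, with tight groups and WT mouse 63 the lowest. The mean was 84.5 ± 7.31 CPM in KO and 33.8 ± 7.61 CPM in WT (SD, n = 3 each; log2FC 1.32, SE 0.18, adjusted p = 0.0380 in edgeR's test). *Sult1a1* (chromosome 7, 126672865 to 126676432, minus strand) encodes a cytosolic enzyme that sulfates phenolic compounds. Its values were 36.7, 34.3 and 30.8 CPM in KO and 10.5, 15.4 and 17.9 CPM in WT, so the lowest KO mouse lay well above the highest WT mouse. The difference was 2.32-fold (log2FC 1.22, SE 0.17, adjusted p = 0.0380).

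*Cblb* (chromosome 16, 52031225 to 52208048, plus strand) encodes a ubiquitin ligase that dampens signalling from receptor tyrosine kinases and immune receptors. It was at 32.4, 40.3 and 31.9 CPM in KO and 14.5, 18.9 and 18.5 CPM in WT (log2FC 1.01, SE 0.14, adjusted p = 0.0380 in edgeR's test). *Mylip* (chromosome 13, 45389742 to 45412022, plus strand) encodes the ligase that marks the LDL receptor for degradation and is induced by sterols. It was at 41.6, 36.9 and 47.8 CPM in KO and 17.8, 23.6 and 23.6 CPM in WT (log2FC 0.96, SE 0.14, adjusted p = 0.0380). The means of both genes differed by close to the same factor, 2.02-fold and 1.94-fold, and the lowest KO mouse lay above the highest WT mouse in each.

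*Col4a1* (chromosome 8, 11198423 to 11312826, minus strand) encodes the main collagen chain of basement membranes, which surround every adipocyte and capillary. Its values were 466, 378 and 422 CPM in KO and 224, 266 and 267 CPM in WT (1.67-fold, log2FC 0.74, SE 0.11, adjusted p = 0.0404 in edgeR's test). *Stxbp6* (chromosome 12, 44852484 to 45074709, minus strand) encodes amisyn, a protein that binds SNARE complexes in vesicle fusion. It was at 4.69, 4.03 and 5.25 CPM in KO and 1.26, 1.74 and 1.67 CPM in WT. Its fold was the highest of the 9 genes, 2.99 (log2FC 1.58, SE 0.23, adjusted p = 0.0404). *Fam102b* (chromosome 3, 108970997 to 109027607, minus strand) was at 31.2, 26.1 and 24.1 CPM in KO and 9.15, 13.6 and 13.4 CPM in WT (2.26-fold, adjusted p = 0.0423). WT mouse 63 had the lowest value of its group in each of the 8 genes that were higher in KO.

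**Figure D1:**
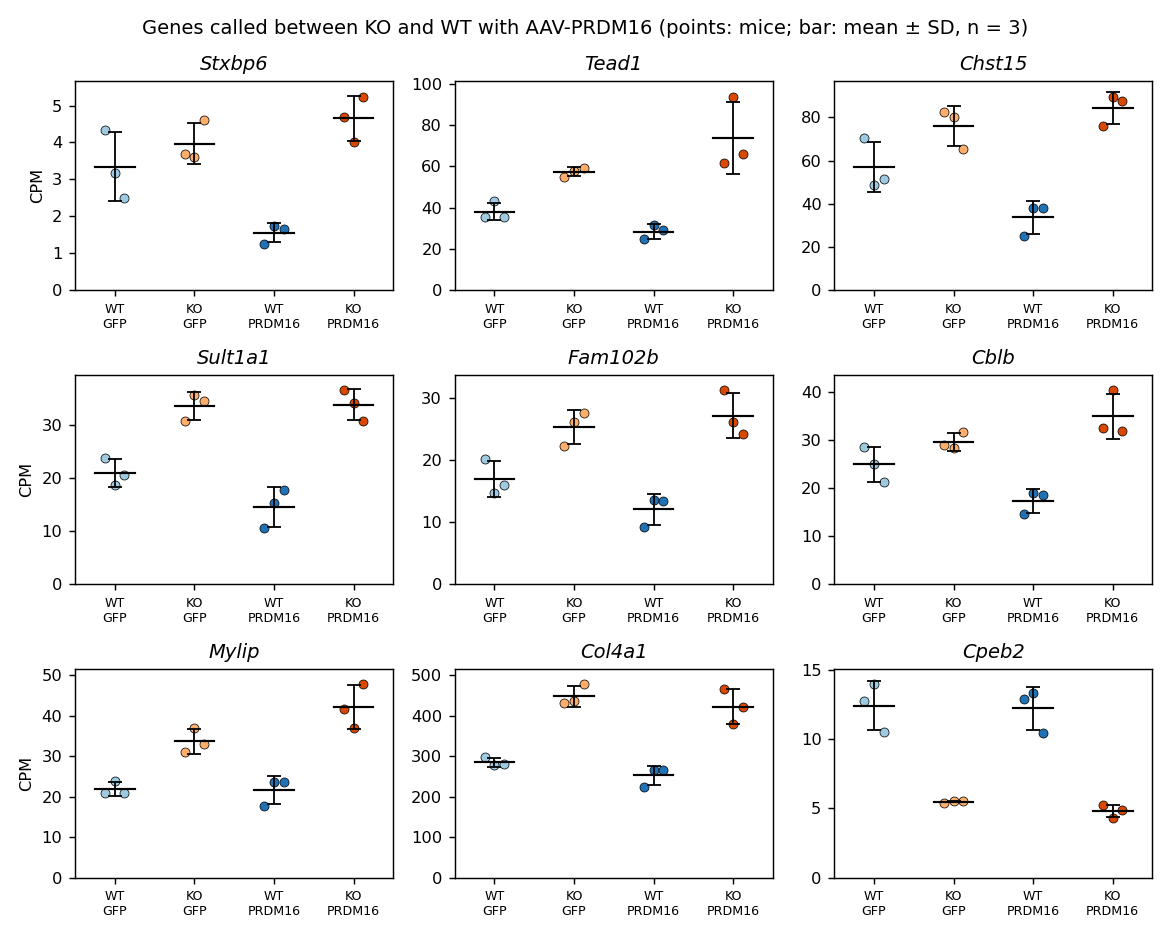
Level of the 9 called genes in the 12 AAV mice, in CPM on linear axes that start at 0. Points are mice, wide bars are means and error bars are SD (n = 3 per group), and in each panel the KO + AAV-PRDM16 and WT + AAV-PRDM16 points do not overlap. For *Tead1* the KO + AAV-PRDM16 points run from 61.9 to 93.9 CPM and the WT + AAV-PRDM16 points from 24.6 to 31.5 CPM.

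The number of called genes depended on single mice and on the libraries fitted. With only the 6 libraries of the comparison in the fit 2 genes were called, and 0 of the 9 were among them (*Cpeb2* adjusted p = 0.0564 in edgeR's test). With all 12 and the replicate number as a block 5 genes were called, and 2 of the 9 were among them. With all 12 and no block the count was 0 without WT mouse 63 or 64, 3 without WT mouse 80, and 3, 1 and 2 without KO mice 59, 65 and 76. Without *Cpeb2* and *Tead1*, the other 7 genes kept their call in 3 to 5 of the 12 fits that left out 1 library. All 9 genes had an adjusted p under 0.05 in DESeq2, which called 626 genes (3.31%), 309 higher (1.64%) and 317 lower (1.68%), and in limma-voom, which called 222 higher (1.17%) and 323 lower (1.71%).

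Beyond the 9 called genes, the next genes by p among those with separated groups were read in both directions, to 12 per direction. Separation means that all 3 KO values lay on one side of all 3 WT values, which held for 11.5% of genes tested on the higher side and 11.2% on the lower side. The adjusted p of these genes, in edgeR's test, ranged from 0.01189 to 0.05375 on the higher side and from 0.01081 to 0.09086 on the lower side. DESeq2 called all 24 of them. The genes were selected by these values, so the separations and p-values describe the selection.

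Above WT in KO stood *Cd163*, a scavenger receptor of resident macrophages, at 6.34, 9.81 and 7.75 CPM against 2.63, 2.02 and 2.73 CPM (log2FC 1.69, adjusted p = 0.0503 in edgeR's test). *Aspn*, a small leucine-rich proteoglycan that binds collagen and TGF-β, was at 15.1, 12.6 and 18.8 CPM against 6.06, 8.54 and 7.88 CPM (log2FC 1.04, adjusted p = 0.0503). *Ttll7*, which adds glutamate chains to tubulin, and *Gpr160*, an orphan receptor, had log2FC values of 1.22 and 1.13 (adjusted p = 0.0537 each). None of these 4 genes passed the threshold in edgeR's test.

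Below WT in KO stood enzymes of mitochondria, peroxisomes and phosphate metabolism. *Phospho1*, a phosphatase of phosphocholine and phosphoethanolamine, was at 154, 129 and 117 CPM in KO and 365, 300 and 209 CPM in WT (log2FC -1.13, adjusted p = 0.0607 in edgeR's test). *Acaa1b*, a peroxisomal thiolase, was at 12.5, 16.3 and 8.84 CPM against 32.3, 23.4 and 29.6 CPM (log2FC -1.18). *Decr1*, which the β-oxidation of unsaturated fatty acids requires, was at 382, 405 and 385 CPM against 605, 540 and 532 CPM (log2FC -0.52, adjusted p = 0.0909). *Iscu*, the scaffold on which iron-sulfur clusters are built in mitochondria, was at 73.2, 77.5 and 70.2 CPM against 101, 104 and 102 CPM, a narrow spread in both groups (log2FC -0.47). *Mrps36* and *Mrps24*, listed with the small subunit of the mitochondrial ribosome, had log2FC values of -0.52 and -0.54. *Dhrs4*, a retinal and carbonyl reductase, had -0.59. The remaining genes were *Acp5*, the tartrate-resistant acid phosphatase (log2FC -0.81), *Apoc1*, an apolipoprotein (-0.99), *Pepd*, a peptidase that cleaves proline dipeptides (-0.77), and *Pebp1*, an inhibitor of RAF kinase signalling (-0.66). None of the 11 passed the threshold in edgeR's test.

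The same 24 genes were then read in the AAV-GFP mice, which share no library with the AAV-PRDM16 comparison. All 12 higher and all 12 lower genes had the same sign there, and 9 and 10 of them were again separated in that direction, where 6.51% and 6.88% of genes tested were separated higher and lower, and 4.98% and 4.20% had an unadjusted p under 0.05 on the higher and lower side. Of the 9 called genes, 6 were again separated. The lower and the called counts include *Cpeb2*, whose direction was fixed by its deletion. Over all genes 10 (0.0529%) passed with AAV-GFP, 1 higher and 9 lower (0.0476%). *Cpeb2* was the 1 of the 9 genes that also passed there (log2FC -1.18, adjusted p = 0.0200 in edgeR's test). Among the other genes of the 24, *Mrps36* and *Mrps24* passed there (adjusted p = 0.024 and 0.028). *Tead1* had a log2FC of 0.59 with AAV-GFP, where KO mice were at 54.9 to 59.4 CPM and WT mice at 35.6 to 43.1 CPM. *Col4a1* had 0.65, close to its 0.74 with AAV-PRDM16. *Cblb* and *Stxbp6* had overlapping groups with AAV-GFP, with log2FC values of 0.25 each. In the 8 higher genes the difference was larger with AAV-PRDM16 than with AAV-GFP. They were selected by the AAV-PRDM16 values, which favours that direction, so this comparison of sizes cannot decide on an effect of the virus. The interaction of genotype and virus did not pass for any of the 9 genes (adjusted p = 0.9998 for each in edgeR's test). Its unadjusted p in that test ran from 0.00128 for *Stxbp6* to 0.562 for *Col4a1*.

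**Figure D2:**
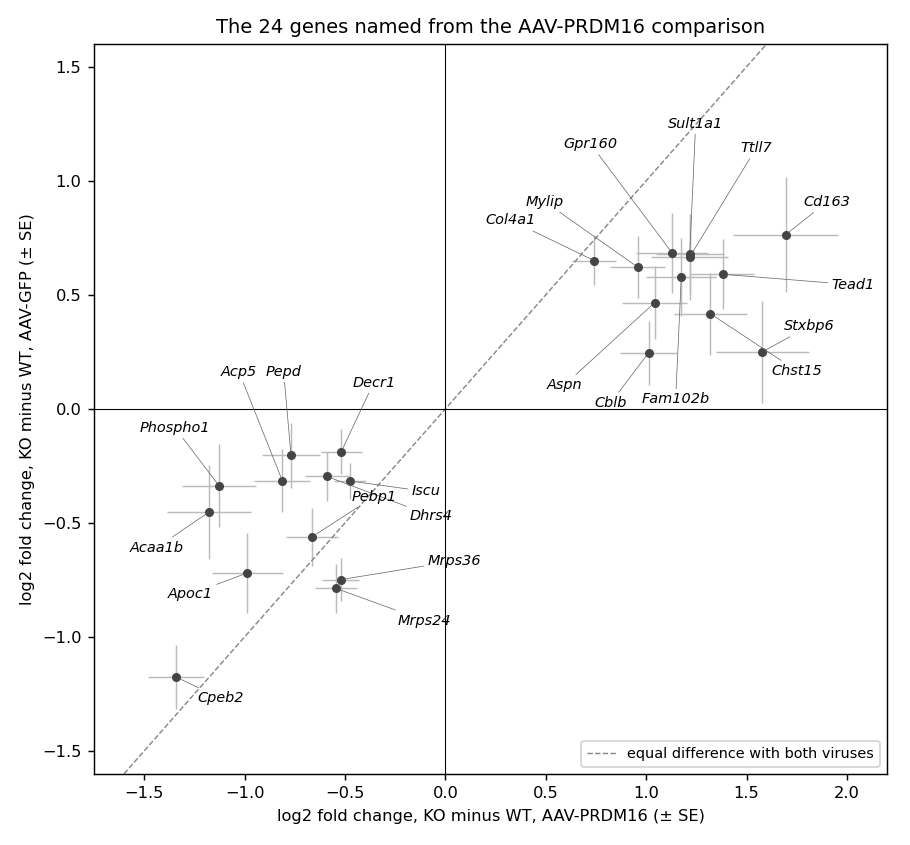
Log2FC of KO minus WT (± SE, n = 3 per group) with AAV-PRDM16 on the horizontal axis and with AAV-GFP on the vertical axis for the 24 genes, with the dashed line at equal differences. All 12 higher genes lie in the upper right quadrant and all 12 lower genes in the lower left one, and *Mrps24* and *Mrps36* lie below the line, with -0.79 and -0.75 with AAV-GFP.

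Over all 18899 genes the interaction had 0 genes at an adjusted p of 0.05 in edgeR's test and 603 at an unadjusted p under 0.05 (3.19%), with a smallest adjusted p of 0.712. DESeq2 called 1 gene and limma-voom 0. The 3 genes with the smallest interaction p in edgeR's test were all scarce. *Frmd7*, a FERM domain protein, was counted 11 to 21 times in KO, at 0.109, 0.194 and 0.251 CPM, and 0 times in all 3 WT libraries, where 0 counts allow up to 3 counts per library or 0.0289 to 0.0351 CPM. Its mean was at least 5.70-fold higher in KO on that basis. *Cand2*, a cullin regulator of muscle, was lower in KO with AAV-PRDM16 at 0.406, 0.379 and 0.284 CPM against 0.550, 0.697 and 0.935 CPM. *Ajm1*, a junction protein, was at 0.129, 0.167 and 0.167 CPM against 0.0936, 0.0442 and 0.116 CPM. All 3 were below 1 CPM, where few reads carry the value.

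Across the 12400 genes with a mean of at least 1 CPM, the log2FC values of the 2 comparisons had a Pearson r of 0.507 and a Spearman rho of 0.513. This is a description across genes, which are not independent replicates. Of the 1093 genes that were separated higher with an unadjusted p under 0.05 with AAV-PRDM16, 958 had the same sign with AAV-GFP and 305 were again separated higher. Of the 1125 genes on the lower side, 1001 had the same sign and 398 were again separated lower. Over all genes tested 6.51% were separated higher and 6.88% lower with AAV-GFP. The share of all genes with the same sign in both comparisons was not counted.

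Promoters of the 24 genes were searched for the letters CATTCC on either strand, the element TEAD factors bind, because *Tead1* was among the called genes. RefSeq windows of GRCm38.p6 from 250 bases before to 50 after a start site were found for 11 of the 12 higher and 8 of the 12 lower genes. The letters were present in 3 of 12 windows of the higher genes (25%) and 0 of 10 windows of the lower genes, against 14.7% of 32851 windows of all genes. The 3 windows belong to *Chst15*, for which 2 overlapping windows hold the same match, and *Sult1a1*. They are printed on the minus strand, the strand of both genes, with the match in capitals, because they are the called genes with such a match, 43 bases before the *Chst15* start at chr7:132317256-132317281 and 42 bases after the *Sult1a1* start at chr7:126676369-126676386.
Chst15: cttgatcttgCATTCCagactcgagc
Sult1a1: accaattctgCATTCCcc
A match describes the letters and is not evidence of binding. The interferon-stimulated response element, searched on both strands, was in 0 windows of either set and 3.44% of all windows.

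No difference in *Prdm16* between the genotypes was detectable after the virus. It was at 69.2, 127.8 and 73.6 CPM in KO and 122, 119 and 45.9 CPM in WT (log2FC -0.08, SE 0.33, adjusted p = 0.951 in edgeR's test). Each group held both high and low mice, with KO mouse 65 the highest and WT mouse 80 the lowest. All 6 lay above the 6 AAV-GFP libraries, which were at 23.9 to 40.2 CPM. Reads of the endogenous gene and of the virus cannot be told apart in these counts. Of 22 genes of PRDM16 and its partners, 9 had a positive and 13 a negative log2FC, with a median of -0.01. Among them *Ppargc1a*, the coactivator of mitochondrial biogenesis, had -0.17, *Pparg*, the master regulator of fat cells, had 0.05 and *Mecom*, the closest relative of *Prdm16*, had 0.06, all with overlapping groups.

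Genes of the thermogenic program lay lower in KO. *Ucp1* was at 1574, 1373 and 2477 CPM in KO and 3531, 2450 and 2389 CPM in WT. KO mouse 76 lay within the WT range while the other KO mice lay below it (log2FC -0.63, SE 0.31, adjusted p = 0.402 in edgeR's test). *Adrb3*, the β3 adrenergic receptor through which cold activates brown fat, was at 201, 165 and 119 CPM in KO and 243, 259 and 241 CPM in WT, with separated groups (log2FC -0.62, SE 0.17, adjusted p = 0.154), and DESeq2 gave an adjusted p of 0.0195. *Cidea*, a lipid droplet protein of brown adipocytes, was at 1123, 1282 and 1109 CPM against 1719, 1416 and 1697 CPM (log2FC -0.46, adjusted p = 0.152). *Otop1*, a proton channel of brown fat, was at 184, 178 and 154 CPM against 292, 240 and 248 CPM (log2FC -0.59, adjusted p = 0.126). *Cox7a1*, a subunit of cytochrome oxidase found in heart, muscle and brown fat, was at 55.8, 57.6 and 56.9 CPM against 79.8, 81.1 and 89.8 CPM (log2FC -0.56). *Dio2*, the deiodinase that makes active thyroid hormone, varied widely in KO, from 26.4 to 150 CPM against 62.8, 48.4 and 80.1 CPM (log2FC 0.14, adjusted p = 0.973).

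*Elovl3*, a fatty acid elongase induced by cold in brown fat and named after its values were seen, was at 4.54 to 30.0 CPM in KO and 46.4 to 190 CPM in WT. The groups were separated, and WT mouse 63 was far above the other WT mice (log2FC -2.66, SE 0.97, adjusted p = 0.257 in edgeR's test).

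Over all genes 51.4% had a positive and 48.5% a negative log2FC. Of 25 thermogenic genes, 20 had a negative log2FC and 11 (44%) were separated lower, none separated higher, with a median of -0.34 (0.01 over all genes). The median was -0.15 with AAV-GFP. In edgeR's test 0 of the 25 passed, 11 had an unadjusted p under 0.05, all lower, and DESeq2 and limma-voom called 6 and 5 lower. Their summed level was 6746 to 7929 CPM in KO and 9237 to 10760 CPM in WT with AAV-PRDM16, without overlap. With AAV-GFP it was 7186 to 7432 CPM in KO and 6720, 9831 and 7490 CPM in WT mice 56, 65 and 89, with overlap. For the interaction of genotype and virus, 0 of the 25 genes had an unadjusted p under 0.05 in edgeR's test.

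**Figure D3:**
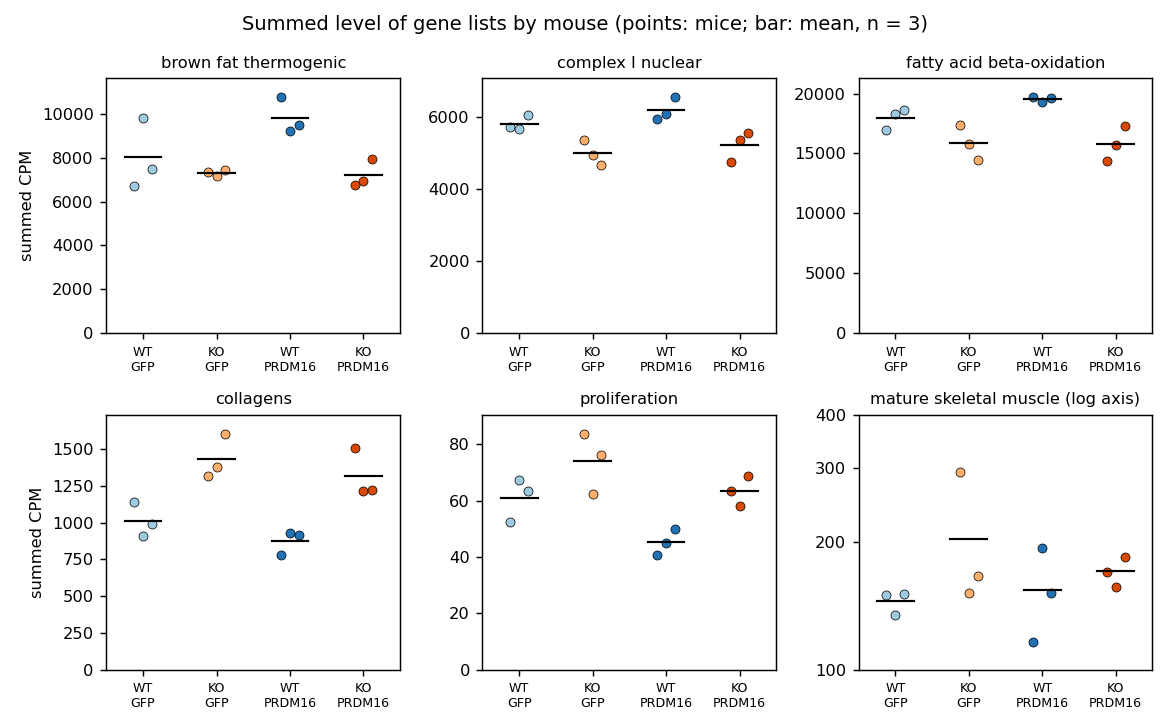
Summed CPM of 6 gene lists in the 12 AAV mice, with points for mice and bars for group means (n = 3), on linear axes from 0 except for the mature skeletal muscle list, whose axis is logarithmic. The complex I, β-oxidation and brown fat sums of the 3 KO + AAV-PRDM16 mice lie below those of the 3 WT + AAV-PRDM16 mice, the collagen and proliferation sums lie above, and the muscle sums overlap.

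Nuclear genes of the mitochondrion lay lower in KO in nearly every list read. These encode most subunits of the respiratory chain, which passes electrons from complex I or II to oxygen, and of ATP synthase, complex V. All 36 nuclear genes of complex I had a negative log2FC, from a KO sum of 4767 to 5555 CPM and a WT sum of 5958 to 6557 CPM, and 22 (61.1%) were separated lower, with a median of -0.28. *Ndufv3*, an accessory subunit next to the NADH-binding site, was at 135, 145 and 142 CPM in KO and 196, 182 and 190 CPM in WT (log2FC -0.43, adjusted p = 0.0909 in edgeR's test). All 4 genes of complex II, all 9 of complex III and all 13 of complex IV also had a negative log2FC, with 2, 6 and 7 separated lower and medians of -0.20, -0.34 and -0.24. For complex V it was 16 of 18, with 8 separated lower and a median of -0.22. The summed levels of complexes II and III did not overlap between the groups. That of complex IV overlapped, at 2823 to 3406 CPM in KO and 3375 to 3949 CPM in WT. The complex V sums overlapped too, at 8102 to 10000 CPM in KO and 9763 to 10680 CPM in WT. With AAV-GFP the medians of complexes I to V were -0.29, -0.18, -0.23, -0.34 and -0.23. There 23, 1, 7, 10 and 11 genes were separated lower, against 6.88% of all genes. *Atp5e*, the epsilon subunit of ATP synthase, was at 37.1, 41.4 and 39.9 CPM against 56.8, 52.1 and 59.8 CPM (log2FC -0.51, adjusted p = 0.0909). No gene of complexes I to V passed in edgeR's test with AAV-PRDM16, where 23, 1, 7, 7 and 9 genes had an unadjusted p under 0.05. DESeq2 called 9, 1, 5, 3 and 5 of them lower, and limma-voom 11, 1, 6, 3 and 5. In the AAV-GFP comparison 1 gene of complex I and 1 of complex III passed in edgeR's test.

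The 13 protein-coding genes of the mitochondrial genome gave another picture. Their median log2FC was -0.03, 4 were positive and 9 negative, and 1 was separated, higher in KO. *mt-Co1*, the catalytic subunit of complex IV, overlapped between the groups (log2FC -0.03, adjusted p = 0.966 in edgeR's test). None of the 13 reached an adjusted or an unadjusted p under 0.05 in edgeR's test (0 and 0 genes), and DESeq2 and limma-voom called 0.

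The machinery that builds mitochondria lay lower as well. Of 78 genes of the mitochondrial ribosome, which translates the mitochondrial genome, 76 had a negative log2FC and 46 (59%) were separated lower, with a median of -0.25. All 27 genes of mitochondrial protein import had a negative log2FC and 19 (70.4%) were separated lower, with a median of -0.30. With AAV-GFP the medians of the ribosome and import lists were -0.16 and -0.15. *Romo1*, a small inner membrane protein listed with import, was at 17.7, 16.9 and 17.1 CPM in KO and 24.9, 21.7 and 27.6 CPM in WT (log2FC -0.52, adjusted p = 0.0969 in edgeR's test). *Timm13*, a chaperone of the intermembrane space, had -0.49 (adjusted p = 0.120). No gene of either list (0 and 0) passed in edgeR's test with AAV-PRDM16, and 35 and 13 had an unadjusted p under 0.05. DESeq2 called 14 and 6 lower, and limma-voom 20 and 8. In the AAV-GFP comparison 2 genes of each list passed in edgeR's test. Genes of the cytosolic ribosome had a median of -0.09, with 9 of 82 (11%) separated lower, near the 11.2% of all genes. That median was -0.22 without KO mouse 76 and -0.01 without WT mouse 80.

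Enzymes that feed the chain followed the same direction. All 19 genes of fatty acid β-oxidation had a negative log2FC and 13 (68.4%) were separated lower, with a median of -0.30 and sums of 14380 to 17260 CPM in KO and 19280 to 19690 CPM in WT. *Slc25a20*, the carrier that brings acylcarnitines into the matrix, was at 292, 316 and 326 CPM in KO and 499, 426 and 436 CPM in WT (log2FC -0.54, adjusted p = 0.102 in edgeR's test). *Cpt2*, which releases the fatty acid on the inner side, was at 350, 377 and 320 CPM against 583, 516 and 454 CPM (log2FC -0.57, adjusted p = 0.129). *Etfdh*, which passes the electrons on to ubiquinone, had -0.46. In edgeR's test 0 of the 19 passed and 12 had an unadjusted p under 0.05, and DESeq2 and limma-voom called 7 and 8 lower. Of 18 citric acid cycle genes, 17 were negative and 8 separated lower, with a median of -0.20. Their summed level overlapped, at 19100 to 21950 CPM in KO and 21510 to 24480 CPM in WT. With AAV-GFP the β-oxidation median was -0.19 and the citric acid cycle median was -0.13.

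Single enzymes of triglyceride synthesis were read next. *Agpat2*, which makes phosphatidic acid on the way to triglycerides, was at 387, 451 and 389 CPM in KO and 845, 650 and 664 CPM in WT (log2FC -0.82, SE 0.16, adjusted p = 0.0909 in edgeR's test), and its log2FC with AAV-GFP was -0.12. *Gpam*, the acyltransferase of the step before, had -0.54 (adjusted p = 0.153) and *Plin1*, the main lipid droplet coat protein, had -0.31 (adjusted p = 0.195). *Lipe*, hormone-sensitive lipase, was separated lower with a small difference (log2FC -0.15, adjusted p = 0.578). *Srebf1*, the regulator of lipogenesis, overlapped (log2FC -0.25). Of 12 genes of adipocytes in general 6 were separated lower (median -0.17), and of 17 genes of de novo lipogenesis 3 were (17.6%). The summed level of the lipogenesis list overlapped, at 34100 to 99230 CPM in KO and 54410 to 79910 CPM in WT, and its median of -0.16 became 0.14 without KO mouse 76 and -0.59 without KO mouse 65. Among 11 tested white fat genes the median was 0.22 (0.57 with AAV-GFP), and -0.02 to 0.50 over the alternatives. *Lep*, the satiety hormone, ran from 45.4 to 242 CPM in KO and 4.04 to 50.6 CPM in WT, with overlap (log2FC 2.07, adjusted p = 0.247).

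**Figure D4:**
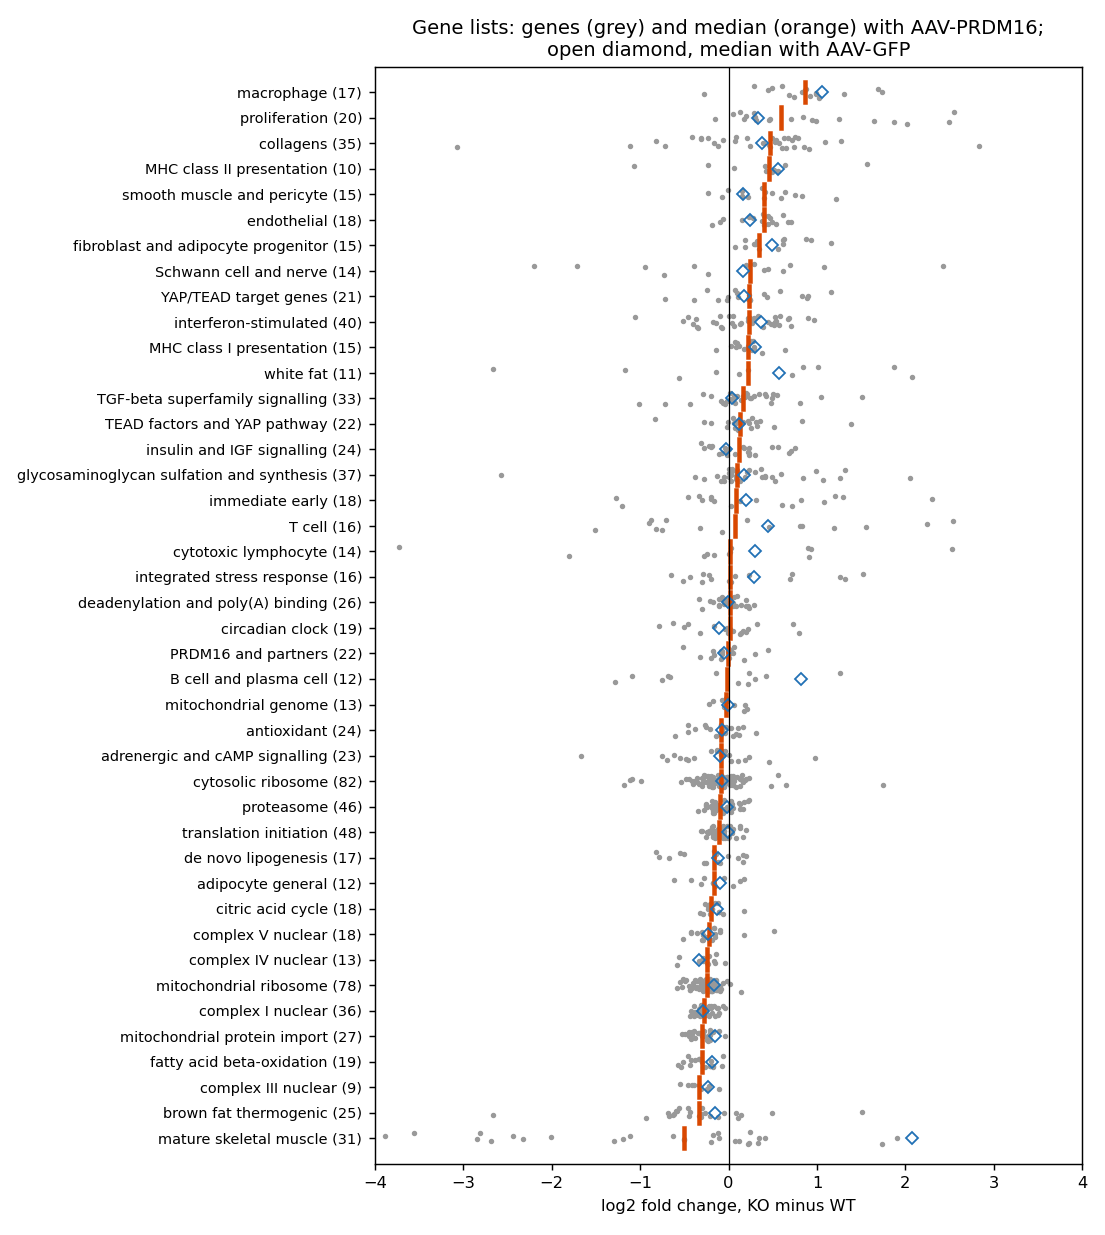
Log2FC of KO minus WT for the members of 42 gene lists with at least 8 tested genes (grey points, number tested in parentheses), the median with AAV-PRDM16 (orange bar) and the median with AAV-GFP (open blue diamond). The axis is cut at -4 and 4, which leaves out 5 members. The medians of the nuclear respiratory chain lists lie left of 0 with both viruses, those of the macrophage and collagen lists right of 0, and the mature skeletal muscle list, in which 1 library per virus stands apart, is at -0.51 with AAV-PRDM16 and 2.07 with AAV-GFP.

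Genes of the Hippo output to which TEAD1 belongs were read as lists. Of 22 tested genes of TEAD factors and the YAP pathway, 17 had a positive log2FC, 6 (27.3%) were separated higher and 2 lower, with a median of 0.13. With the GC and length trend removed 3 were separated higher and 3 lower (13.6% each, against 9.93% and 11.9% of all genes), and the median was 0.05. *Tead1* was the 1 member called in edgeR's test. *Amotl2*, an angiomotin that holds YAP back and is itself a YAP target, was at 84.1, 73.5 and 107 CPM in KO and 38.2, 62.8 and 47.3 CPM in WT (log2FC 0.83, adjusted p = 0.153 in edgeR's test). *Vgll4*, which competes with YAP for TEAD factors, went the other way, at 50.4, 62.1 and 55.5 CPM against 116, 78.6 and 105 CPM (log2FC -0.84, adjusted p = 0.126). *Wwtr1*, which encodes TAZ, had 0.33, and *Yap1* and *Tead4* overlapped.

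Of 21 tested target genes of YAP and TEAD, 15 had a positive log2FC, 7 (33.3%) were separated higher and 1 lower, with a median of 0.23, or 0.11 with the GC and length trend removed and 0.07 without KO mouse 59. *Ccn1* was at 9.98, 7.74 and 12.9 CPM in KO and 5.45, 6.15 and 4.92 CPM in WT, and *Ccn2* was at 2.79, 3.02 and 1.89 CPM against 0.632, 1.56 and 1.24 CPM. Both encode matricellular proteins that serve as readouts of YAP, and their log2FC values were 0.89 and 1.16 (adjusted p = 0.233 and 0.257 in edgeR's test). The target list held 0 genes that passed and 7 with an unadjusted p under 0.05, and DESeq2 and limma-voom called 1 and 2 higher.

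Genes of the extracellular matrix and of vessels lay higher in KO. Of 35 tested collagen genes, 24 had a positive log2FC, 12 (34.3%) were separated higher and 1 lower, with a median of 0.47, or 0.29 without WT mouse 63, and sums of 1213 to 1509 CPM in KO and 777.1 to 927.2 CPM in WT. *Col4a2*, the partner chain of *Col4a1*, was at 394, 317 and 300 CPM in KO and 213, 250 and 232 CPM in WT (log2FC 0.54, adjusted p = 0.117 in edgeR's test). *Col3a1*, a fibrillar collagen, was at 128, 108 and 97.9 CPM against 49.2, 66.5 and 69.6 CPM (log2FC 0.85, adjusted p = 0.139). *Col28a1*, a rare collagen of nerve sheaths, was at 3.22, 2.87 and 4.29 CPM against 0.187, 0.741 and 0.520 CPM (log2FC 2.83, adjusted p = 0.0669), and its log2FC with AAV-GFP was 2.29. *Col4a1* was the 1 collagen called in edgeR's test, and DESeq2 and limma-voom called 5 each, all higher.

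Of 37 tested genes of glycosaminoglycan sulfation and synthesis, the group of *Chst15*, 30 had a positive log2FC and 9 (24.3%) were separated higher. The median was 0.10 (0.175 with AAV-GFP). *Chst15* was the 1 called in edgeR's test. All 15 fibroblast and adipocyte progenitor genes had a positive log2FC and 6 were separated higher (median 0.35, and 0.49 with AAV-GFP). Of these, *Fbn1*, the fibrillin of elastic microfibrils, was at 18.2, 17.7 and 13.2 CPM in KO and 7.90, 9.08 and 8.74 CPM in WT (log2FC 0.93, adjusted p = 0.0669). *Cd34*, a surface protein of progenitor and endothelial cells, had 1.16 (adjusted p = 0.0909). The fibroblast markers *Pdgfra* and *Dcn* overlapped between the groups.

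Of 18 endothelial genes, 15 had a positive log2FC and 11 (61.1%) were separated higher, with a median of 0.40 (0.24 with AAV-GFP). *Tie1*, an endothelial receptor, was at 49.6, 42.4 and 58.5 CPM in KO and 29.8, 33.8 and 28.8 CPM in WT (log2FC 0.70, adjusted p = 0.183 in edgeR's test). The adhesion molecules *Pecam1* and *Cdh5* were separated higher, with 0.46 and 0.49. Among the 18, 0 passed in edgeR's test and 9 had an unadjusted p under 0.05, and DESeq2 and limma-voom called 1 each. Of 15 smooth muscle and pericyte genes 7 were separated higher (median 0.40), among them *Myh11*, smooth muscle myosin, at 19.0, 23.4 and 15.0 CPM against 12.5, 12.6 and 11.8 CPM (log2FC 0.64, adjusted p = 0.130), which had -0.05 with AAV-GFP. With the GC and length trend removed, 4 of the 15 were separated higher.

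Of 17 macrophage genes, 16 had a positive log2FC and 11 (64.7%) were separated higher, with a median of 0.86 (1.06 with AAV-GFP). *Csf1r*, the growth factor receptor on which macrophages depend, was at 12.7, 11.6 and 10.3 CPM in KO and 5.47, 6.93 and 5.07 CPM in WT (log2FC 0.99, adjusted p = 0.197 in edgeR's test). *Mrc1*, the mannose receptor, had 0.68. The list holds *Lpl*, which adipocytes also express, and the other 16 genes, summed in an analysis added after seeing the data, came to 141.6, 107.1 and 128.3 CPM in KO and 57.91, 74.33 and 67.17 CPM in WT. Among the 17, 0 passed in edgeR's test and 11 had an unadjusted p under 0.05, and DESeq2 and limma-voom called 3 and 2 higher.

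Cell cycle genes were the other group with large differences. Of 20 proliferation genes, 19 had a positive log2FC and 9 (45%) were separated higher, with a median of 0.59 (0.33 with AAV-GFP) and sums of 57.9 CPM or more in each KO mouse and below that in each WT mouse. *Mki67*, a nuclear protein of dividing cells, was at 7.18, 5.86 and 8.04 CPM in KO and 0.714, 1.75 and 1.13 CPM in WT (log2FC 2.55, SE 0.48, adjusted p = 0.0887 in edgeR's test). *Top2a*, the topoisomerase that untangles replicated DNA, was at 2.88, 1.79 and 3.64 CPM against 0.164, 0.619 and 0.684 CPM (log2FC 2.49, adjusted p = 0.120), and *Ccna2*, a cyclin, had 1.65 (adjusted p = 0.0909). With AAV-GFP these 3 genes had log2FC values of 0.70, 0.80 and 0.37. In edgeR's test 0 of the 20 passed and 8 had an unadjusted p under 0.05, and DESeq2 and limma-voom called 4 and 2 higher. Which cells these transcripts came from cannot be told from whole tissue.

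Skeletal muscle is the fate that PRDM16 represses, and several of its contractile genes were highest in 1 library, WT mouse 64. *Acta1*, skeletal actin, was at 0.307, 0.176 and 0 CPM in KO and 0.187, 3.27 and 0.154 CPM in WT, and *Myh1*, a fast myosin, was at 5.71 CPM in WT mouse 64 and at most 0.139 CPM in the other 5. *Ttn*, the giant sarcomere protein, was likewise at 3.56 CPM in WT mouse 64 and at most 0.159 CPM elsewhere. The 31 tested genes of mature muscle had a median log2FC of -0.51, which became 0.86 without WT mouse 64, so the direction rested on this library. With AAV-GFP KO mouse 57 stood apart in the same way, with a list sum of 293.8 CPM against 151.6 and 166.2 CPM in the other KO mice, *Acta1* at 13.1 CPM against 0.0718 and 0.458 CPM, and *Myh1* at 6.30 CPM against 0.135 and 0 CPM. *Myl1*, a myosin light chain, had overlapping groups (log2FC 0.08, adjusted p = 0.841 in edgeR's test). *Casq2*, the calcium-binding protein of cardiac and slow muscle stores, was the 1 member separated, at 3.96, 3.99 and 3.36 CPM in KO and 1.34, 1.05 and 0.626 CPM in WT (log2FC 1.91, adjusted p = 0.0887).

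Genes of antigen presentation had positive medians, without a call in edgeR's test, DESeq2 or limma-voom for any gene of MHC class I or II. Of 15 class I genes 5 were separated higher (median 0.22, or 0.08 without KO mouse 65, and 0.30 with AAV-GFP). Of 10 class II genes 6 were separated higher (median 0.46, and 0.56 with AAV-GFP). In these lists 1 and 0 genes reached an unadjusted p under 0.05. *Cd74*, the invariant chain, was at 59.3, 46.8 and 57.6 CPM in KO and 35.2, 40.0 and 36.1 CPM in WT (log2FC 0.56, adjusted p = 0.593 in edgeR's test). Of 40 interferon-stimulated genes 10 (25%) were separated higher and 2 lower. Their median was 0.23, or 0.10 without KO mouse 76, and 0.36 with AAV-GFP. Their summed level overlapped, at 616.5, 630.8 and 761.7 CPM in KO and 772.4, 705 and 751.1 CPM in WT. *Irf1*, an interferon regulatory factor, was at 19.2, 18.8 and 16.1 CPM against 15.5, 15.3 and 14.9 CPM (log2FC 0.24, adjusted p = 0.392). Of the T-cell markers, *Cd247* was separated higher in KO, at 1.05 to 1.37 CPM against 0.453 to 0.951 CPM (log2FC 0.83, adjusted p = 0.371 in edgeR's test). *Cd3e* and *Cd3d* overlapped, with log2FC values of -0.07 and -0.82. These markers and the B-cell markers *Ms4a1* and *Cd79a* were at 1.37 CPM or less in all 6 libraries. Antibody genes were higher and uneven, with *Ighm*, the IgM heavy chain, at 5.41, 8.36 and 6.53 CPM in KO and 4.02, 24.7 and 14.6 CPM in WT, with overlap. Of 14 tested Schwann cell and nerve genes, 5 (35.7%) were separated higher and 4 (28.6%) lower, with a median of 0.24 that was 0.06 without KO mouse 59. Among these, *Sox10*, a transcription factor of Schwann cells, was separated lower, at 0.2 to 0.565 CPM in KO and 0.63 to 1.13 CPM in WT (adjusted p = 0.438 in edgeR's test).

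Transcript length and GC content moved with the genotype difference. Genes with an unadjusted p under 0.05 in edgeR's test numbered 1308 higher (6.92%) and 1286 lower (6.80%), and the higher ones had a median transcript length of 3951.5 bases and GC content of 47.71%, against 2230 bases and 52.77% for the lower ones and 2874 bases and 49.35% for all genes. Split into 10 bins by length, the median log2FC ran from -0.15 in the shortest genes (median 844 bases) to 0.14 in the longest (median 8252 bases), and from -0.12 to 0.06 with AAV-GFP. The lists differ in length, with a median of 1025.5 bases for complex I and 5930 bases for collagens. With the GC and length trend of each library removed, the list medians were -0.19 for complex I, -0.22 for the mitochondrial ribosome, -0.32 for β-oxidation, -0.33 for thermogenic genes, 0.40 for collagens and 0.65 for proliferation. Of the 9 called genes, 8 were called in that fit, and *Col4a1* was not (adjusted p = 0.0713). The part of RNA quality or library preparation in this trend was not tested.

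**Figure D5:**
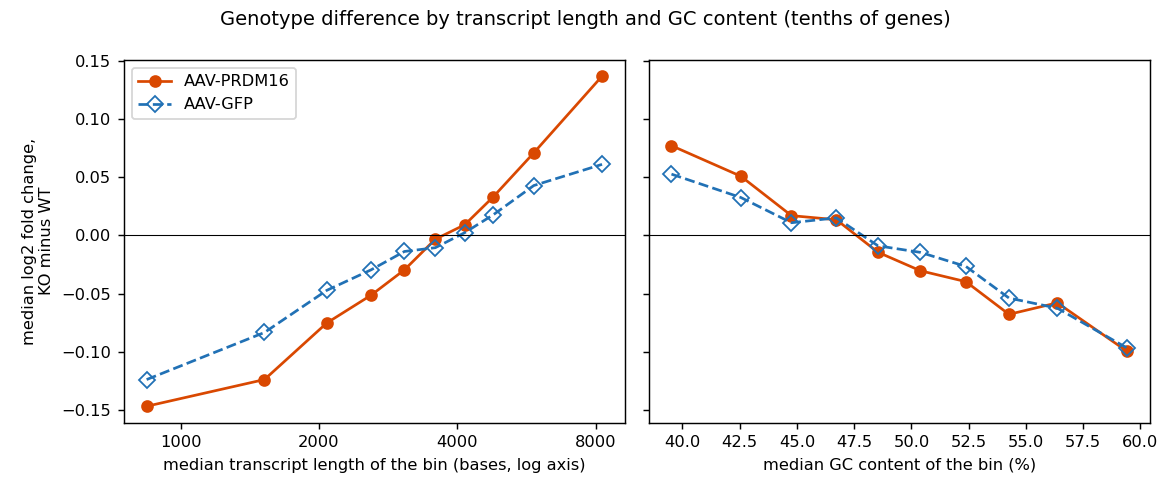
Median log2FC of KO minus WT in 10 bins of the genes with a mean of at least 1 CPM, by transcript length on a logarithmic axis (left) and by GC content (right), with AAV-PRDM16 (filled) and AAV-GFP (open). The median climbs with length from -0.15 to 0.14 with AAV-PRDM16 and drops with GC content from 0.08 to -0.10.

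The untreated cohort of 5 WT and 5 KO mice gave a further reading of the 12 higher and 12 lower genes, with limits. Replicate 1 labelled KO had 11.7 CPM of *Cpeb2*, within the WT range of 7.69 to 14.3 CPM, and 6 of the 10 libraries labelled male held under 2 CPM of Y-linked transcripts. These were WT replicates 3 and 5 and KO replicates 1, 3, 4 and 5. Genotype and apparent sex were thus unbalanced, and their parts cannot be told apart in this cohort. The paper also describes a short food deprivation of these mice before tissue was taken. Of the 8 genes called higher with AAV-PRDM16, 7 had a positive log2FC there, 5 without replicate 1 labelled KO and 6 without WT replicates 1 and 2. Of all 12 higher genes 9 had the same sign, and of the 11 lower genes other than *Cpeb2* 2 did, where 51.8% of all genes tested were higher. None of the 12 higher and 12 lower genes passed in that cohort in edgeR's test (smallest adjusted p 0.305). Other genes were not read there.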

How the data were processed

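The authors made SureSelect XT HS2 mRNA libraries from the BAT of 22 mice, and the deposited tables hold whole-number counts of reads on 55487 Ensembl mouse genes, unnormalized. Per the labels, reads were processed with bcl2fastq 2.20, Trimmomatic 0.36 and HISAT2 on GRCm38.p6. The counting tool and the handling of strand, molecular identifiers and duplicates are not given in the sources used here, so overlapping, antisense and paralogous genes are uncertain. Replicates were mice, named by the labels' mouse numbers in the AAV groups and by replicate number in the untreated groups, in groups given by genotype and virus. GENCODE M21 gave symbols, lengths and GC content, and matched 55141 identifiers.

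In R 4.3.3, the 12 AAV libraries were fitted together without covariates in edgeR 4.0.16 (filterByExpr, TMM, glmQLFit with its default settings, glmQLFTest, two-sided), with Benjamini-Hochberg adjustment over 18899 genes. SE is the absolute log2FC over the root of F. A count of 0 was read as up to 3 counts, for counting error only. The test was checked on simulated data. Named genes were those at an adjusted p under 0.05, the 12 higher and 12 lower with the smallest p among separated genes of at least 1 CPM, the up to 4 members of each list with the smallest p and 3 with the highest CPM, genes the study names, and the 3 with the smallest interaction p. *Ccn2*, *Col3a1*, *Elovl3*, *Mrc1*, *Tead4* and *Yap1* were named after their values were seen. The members, gene lists and comparison were chosen with earlier results of these data known. Alternatives were DESeq2 1.42.0, limma-voom 3.58.1 with sample weights, other scaling and filters, the replicate number as a block, removal of trends in GC content and length (splines of 4 degrees of freedom), only the 6 libraries, other thresholds, and each library left out. The shared replicate numbers name different mice. Some marker results are not reported here.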

Additional observations from a re-analysis of the deposited data

Results flagged for a closer look

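In the untreated cohort, 48 groups of 5 libraries were tested for a value far from the others with Dixon's ratio (critical value 0.71), and 5 stood out, where chance gives about 1 in 20. All were mice labelled KO. Replicate 1 held the highest *Cblb*, 64.44 CPM with the next at 27.01 CPM, and the highest *Tead1*, 110.2 CPM with the next at 36.92 CPM. This is the library labelled KO whose *Cpeb2* level lay within the WT range. Replicate 2 held the highest *Col4a1*, 606.5 CPM with the next at 394.3 CPM, the highest *Stxbp6*, 6.245 CPM with the next at 2.859 CPM, and the lowest *Dhrs4*, 44.68 CPM with the next at 90.59 CPM. For each of these genes 1 library sets the extreme of its group in that cohort.

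*Cand2* and *Ajm1* differed in opposite directions with the 2 viruses, each without overlap of the 3 KO and 3 WT mice. *Cand2* had a log2FC of -1.02 with AAV-PRDM16 and 1.07 with AAV-GFP and *Ajm1* had 0.851 and -2.79. The interaction in edgeR's test had an adjusted p of 0.9998 for both, with unadjusted values of 0.0011 and 0.00111. Both lay below 1 CPM in the AAV-PRDM16 libraries.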

How the results depend on the processing

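The count of 9 called genes was 13 with RLE scaling, 13 without a filter, 11 with the GC and length trend removed, 626 in DESeq2, 545 in limma-voom, 19 with at least 1 CPM in 3 libraries, 2 with only the 6 AAV-PRDM16 libraries (0 shared with the 9), 20 with the newer quasi-likelihood method (added after seeing the data), 916 at 2-fold and an FDR of 0.5 (633 higher, 283 lower) and 87 at an FDR of 0.1 (57 higher, 30 lower). The cause of the gap between the tests was not tested. With single libraries left out it ran from 0 to 15. The interaction count was 1 in DESeq2, 0 to 1 with libraries left out and 0 otherwise. The *Cpeb2* log2FC was -1.34 with only 6 libraries (adjusted p = 0.0564 from edgeR's test) and -1.44 to -1.27 with libraries left out (adjusted p 0.0113 to 0.0581).

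The deviations of same-numbered mice from their group means had r from -0.151 to 0.341, with 6 of 18 pairs over 0.1. Pairs with different numbers were not read beside them, so these values cannot decide whether the numbers pair the samples. With the replicate block 5 genes were called, 2 of them shared, and 6 with the block and the GC and length trend removed.

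Signs turned in genes with small or uneven differences. In limma-voom *Prdm16* was 0.000736, *Myl1* -0.0159, *Dio2* -0.662 and *Pparg* -0.113. *Dio2* was -0.173 with the block and -0.302 with the block and trend removed. *Cpeb4* and *Mecom* were -0.133 and -0.0469 with the trend removed, and -0.134 and -0.0427 with the block as well. With single libraries left out the log2FC ran from -0.42 to 0.13 for *Prdm16*, -0.0502 to 0.177 for *Myl1*, -0.0223 to 0.114 for *Cpeb4*, -0.101 to 0.0044 for *Cpeb3*, -3.57 to 0.00097 for *Acta1*, -10.6 to 5.44 for *Myh1*, -1.08 to 0.53 for *Dio2*, -0.25 to 0.198 for *Pparg*, -4.15 to 0.856 for *Ttn*, -4.48 to 0.734 for *Atp2a1* and -0.0724 to 0.125 for *Mecom*. In the untreated cohort *Cblb*, *Tead1* and *Gpr160* were -0.232, -0.571 and 0.0119 without replicate 1 labelled KO, and *Mylip* and *Cd163* -0.0533 and -0.0109 without WT replicates 1 and 2. With 3 mice a group, differences below the spread between mice were not detectable.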

Other observations

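In the main fit, gene groups of translation and RNA decay, in which CPEB proteins act, had medians nearer to that of all genes (0.01) than the nuclear respiratory chain lists. With the GC and length trend removed this did not hold for every list. The translation initiation median was then -0.148, with 42 of 48 genes negative, beside -0.147 for complex V and -0.187 for complex I. Of 48 tested translation initiation genes, 38 had a negative log2FC and 8 (16.7%) were separated lower, with a median of -0.10 (-0.01 with AAV-GFP). Of 26 deadenylation and poly(A)-binding genes, 14 had a positive log2FC, 5 were separated higher and 3 lower, with a median of 0.02. The proteasome list had a median of -0.09, with 7 of 46 tested genes (15.2%) separated lower. *Rps19*, a protein of the small cytosolic ribosomal subunit, was at 36.3, 38.4 and 35.2 CPM in KO and 49.8, 45.5 and 51.3 CPM in WT (log2FC -0.41, adjusted p = 0.118 in edgeR's test). For these lists edgeR's test called 0 genes, with 4, 2 and 2 translation, deadenylation and proteasome genes at an unadjusted p under 0.05. DESeq2 called 1 deadenylation gene, and limma-voom 0 genes of the 3 lists.

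Of 24 insulin and IGF signalling genes, 14 had a positive log2FC and 6 (25%) were separated higher, with a median of 0.12, or -0.00269 with the GC and length trend removed. *Igf2*, a fetal growth factor, was at 8.23 to 11.4 CPM in KO and 5.34 to 6.40 CPM in WT (log2FC 0.68, adjusted p = 0.120 in edgeR's test), and had -0.04 with AAV-GFP. *Grb10*, an imprinted adaptor that dampens insulin receptor signalling, was at 14.0, 11.2 and 15.0 CPM in KO and 7.01, 9.22 and 8.42 CPM in WT (log2FC 0.70, adjusted p = 0.126). Every KO mouse lay above every WT mouse in both genes.

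*Ier3*, a stress-induced survival gene, lay below WT in all 3 KO mice, at 2.62, 2.73 and 2.40 CPM against 6.18, 5.64 and 6.94 CPM (log2FC -1.27, adjusted p = 0.137 in edgeR's test). *Btg2*, another early response gene, lay above, at 14.4, 10.2 and 14.7 CPM against 7.28, 8.30 and 6.73 CPM (log2FC 0.82, adjusted p = 0.166). The 18 tested immediate early genes had a median of 0.08, the 19 circadian clock genes 0.01 and the 16 genes of the integrated stress response 0.02. In each list 2 genes were separated higher (11.1%, 10.5% and 12.5%, against 11.5% of all genes). Separated lower were 1, 2 and 3 genes (5.56%, 10.5% and 18.8%, against 11.2% of all genes). The summed level of the stress response list was 292.9 to 329 CPM in KO and 359.4 to 428.8 CPM in WT, without overlap.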
